A study of Homo sapiens with 12 samples.

Results

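The response of MDA-MB-231 cells to a miR-145-5p mimic, with AGO2 left in place, was measured by comparing the arrays labelled mimic145 with the arrays labelled cntrl. The members were taken from the sample labels: 6 of the 12 arrays of the series, 3 for each group, joined into 3 pairs by their replicate number. MDA-MB-231 is an established human breast cancer line of the basal B type, and all results rest on this line alone. The cntrl cells received control oligonucleotides for both the mimic and the siRNA, the mimic145 cells overexpressed miR-145, the sirnaAGO2 cells were interfered for AGO2 and the sirnaAGO2+mimic145 cells received both. The labels do not say whether the mimic145 cells also received the siRNA control. The paper's figure on these arrays labels the miR-145-5p response in the presence of AGO2 as si-CTR. If the mimic145 cells did not receive the siRNA control, its effect cannot be told apart from that of the mimic. The study's methods give 5 nM of mimic or its control, 500 pM of siRNA or its control and 72 h of silencing. The other 6 arrays, those with the siRNA, entered the fit to share its estimate of the spread, and their values are given only beside genes of the main comparison. The series was described as a biological triplicate.

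MicroRNAs are short RNAs that guide Argonaute proteins, the core of the RNA-induced silencing complex, to messenger RNAs. Pairing of bases 2 to 8 of the microRNA, its seed, with the target is the main basis of that choice, and bound messengers are translated less and decay faster. miR-145 is abundant in smooth muscle and other mesenchymal tissue, where it favours the contractile state, and it is reduced in many carcinomas. The mature strand is shown because the mimic delivers it, with the seed in capitals:
hsa-miR-145-5p: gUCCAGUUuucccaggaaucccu
It lies at chr5:149430661-149430683 on the plus strand of GRCh38.p14, within the gene MIR145, in the RefSeq table. No other of the 2370 mature miRNA names in that table had the same seed. The table need not hold every human microRNA, so the seed may not be unique to miR-145-5p. Seed matches in target transcripts were not analysed here.

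The exon arrays read each gene with several probes, and a gene's value is the mean log2 signal of its kept probes, 5 at the median, after quantile normalization. The share of spots well above background ran from 60.5% to 77.3% over the arrays, and no spot was saturated. Defining genes of the cell line were present: 12 of 12 basal B markers had a probe above background on all 6 arrays, and for 11 of them at least as many probes passed as failed. By the first measure 9 of 12 luminal, 11 of 12 leukocyte, 5 of 10 endothelial, 7 of 10 fibroblast and 4 of 8 adipocyte markers were present, and by the second 5, 3, 1, 1 and 1 of them. AGO2 was at 9.21, 9.14 and 9.01 in cntrl and at 9.44, 9.36 and 9.39 in mimic145, a rise of 0.28 (adjusted p = 0.0298). On each slide the cntrl array held the first position and the mimic145 array the second, so position and mimic cannot be told apart. The 10 spike-in RNAs, added in equal amounts, differed between these positions by a median of -0.15, -0.11 and 0.04 on the 3 slides, and the means of single spikes ran from -0.22 to 0.09.

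Of the 18253 genes tested, 4118 passed at an adjusted p under 0.05 in limma (22.6%). The mimic lowered 2004 of them (11.0%) and raised 2114 (11.6%), and the median over all genes was 0.01. Changes were moderate, with a median size of 0.43 among the genes that passed. Large changes leaned downward: 167 genes fell and 62 rose by more than 1 on the log2 scale. In 3444 of the genes that passed (83.6%) the 3 arrays of one group lay wholly above those of the other, against 28.4% of all genes tested. The count was smaller with fewer arrays and differed with the replicate left out. It was 1211, 2317 or 1702 without replicate 1, 2 or 3, and 2563 without the mimic145 array of replicate 1. The methods' t-test, paired with 2 degrees of freedom, found 3867 genes with p up to 0.05, and 0 once p was adjusted by Benjamini-Hochberg. An exact permutation test of 3 arrays against 3 cannot go below p = 0.1.

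The largest fall among genes on at least 3 probes was that of FSCN1. FSCN1, encoding fascin, which bundles actin filaments in cell protrusions, had log2 signals of 7.89, 7.98 and 7.58 in cntrl and 5.46, 5.76 and 5.74 in mimic145. It fell by 2.16 ± 0.12 (SE of the fit, n = 3 pairs) at all 7 probes (adjusted p = 3.25e-05). Here and below, ± gives the SE of the fit, which shares its estimate of the spread with the siRNA arrays. It is not the SE of the 3 pair differences. For FSCN1, however, 4 of the 7 probes were not above background on any mimic145 array. The difference was -1.25 with normexp background correction and -1.59 with the median over probes, and both passed. The other genes of this paragraph, the next one and the one on rises are not named in the main text of the study. GMFB, a member of the cofilin-like family that takes apart branched actin, went from 10.01, 9.61 and 10.24 to 7.97, 8.10 and 8.01 and fell by 1.93 ± 0.13. The groups of both genes were far apart on every slide. SWAP70, an actin-binding protein of Rac signalling, fell by 1.5 at 11 of 11 probes, and the small actin-associated protein ABRACL fell by 1.63, with -0.54 as the median over its probes. SORBS2, an adaptor of actin-based adhesions, fell by 1.51 at all of its 19 probes, with -0.88 under normexp correction.

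Other genes at this end had varied functions. EIF2AK1, the heme-regulated kinase of the initiation factor eIF2, stood at 9.91, 9.69 and 10.22 in cntrl and at 8.43, 8.13 and 8.62 in mimic145 and fell by 1.55 ± 0.08 at 16 of 16 probes (adjusted p = 3.25e-05). LXN, an inhibitor of carboxypeptidases, moved from 9.08, 9.11 and 9.02 to 6.88, 7.40 and 7.17 and fell by 1.92. In both genes the groups stood well apart. SPTLC3, a subunit of the enzyme that starts sphingolipid synthesis, fell by 1.68 at 12 of 12 probes (-0.99 under normexp correction), and TMEM9B, a lysosomal membrane protein, by 1.73. FUCA2, a secreted fucosidase, fell by 1.43 at 7 of 7 probes. DTD1, which clears D-amino acids from transfer RNA, fell by 1.55, and GXYLT2, a xylosyltransferase of Notch glycans, by 1.49. MBOAT1, a lysophospholipid acyltransferase, was not well above background on any mimic145 array at any of its 3 probes, so that only a bound can be given: it was at least 1.66-fold lower (adjusted p = 0.00163).

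The largest rise by this choice was that of SNRPC, a protein of the U1 particle of the spliceosome, from 11.58, 12.10 and 11.98 to 13.83, 13.84 and 13.75. The difference was 1.92 ± 0.12 at 4 of 4 probes, a 3.79-fold increase (adjusted p = 6.9e-05). Its probes may share signal with SNRPC pseudogenes, which was not tested. SCML1, a Polycomb-related protein, rose by 1.56 and TSPYL2, of the nucleosome assembly family, by 1.52 (0.98 under normexp correction). Secreted proteins were present here too: IGFBP1, which binds insulin-like growth factors, rose by 1.49 and PTX3, a pattern-recognition pentraxin, by 1.18. For IGFBP1, 1 of its 4 probes ran the other way. RGS4, which shortens G-protein signalling, rose by 1.24, or by 0.75 with no filter on dim probes. MSRB3, a methionine sulfoxide reductase, rose by 1.23, RBSN, an effector of early endosomes, by 1.18, and COMMD10, of the endosomal COMMD complex, by 1.16. STEEP1, which promotes exit of STING from the endoplasmic reticulum, rose by 1.28. UBE2V1, a ubiquitin-conjugating enzyme variant, rose by 1.20, but 2 of its 9 probes ran the other way, and it overlaps a readthrough gene.

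**Figure D1:**
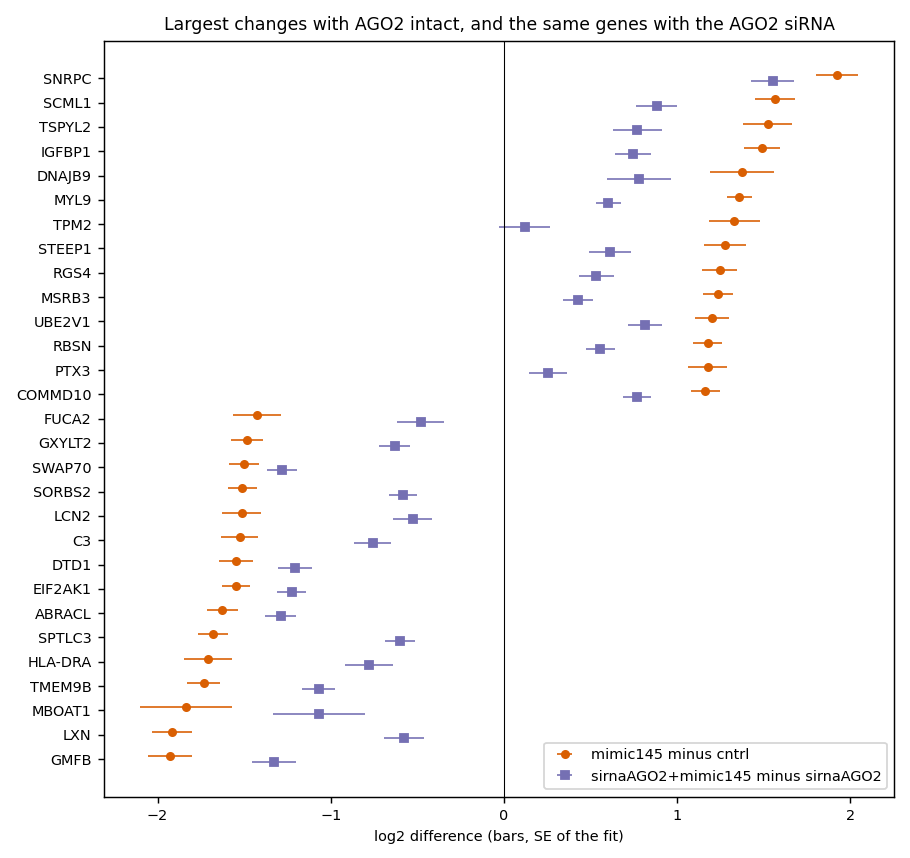
Log2 differences (x axis) of 15 of the largest falls and 14 of the largest rises, among genes not named in the main text of the study, with AGO2 intact (orange circles), with the same genes in cells given the AGO2 siRNA (purple squares); bars are SE of the fit, 3 array pairs for each. The orange points run from -1.93 for GMFB to 1.92 for SNRPC, and the genes were chosen on them. The purple points lie on the same side of 0 and nearer to it, for example at -1.33 for GMFB and 0.12 for TPM2.

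To see which processes moved, 36 lists of 28 to 99 tested genes were counted against the shares of all genes, 11.0% lower and 11.6% higher. Rises were most frequent among genes of cholesterol synthesis, the unfolded protein response, serine synthesis with ATF4 targets, the aminoacyl-tRNA synthetases and the RAS-MAPK cascade. Falls were most frequent among genes of glycolysis and hypoxia, among miR-145-5p targets named in the wider literature, and among genes of NRF2, glutathione and iron. When a replicate was left out, fewer of all 18253 genes passed too. Without replicates 1, 2 and 3, 719, 1227 and 948 of them fell and 492, 1090 and 754 rose. Counts of lists and families without a replicate are to be read beside these. The literature list, which may hold genes first found in cells like these, had 26 of 69 members lower and 6 higher, with a median of -0.15, and 15, 22 and 18 lower without replicates 1, 2 and 3. ADD3, an actin-capping adducin, fell by 1.35 at all of its 13 probes, with FSCN1 and SWAP70 above it in the list.

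**Figure D2:**
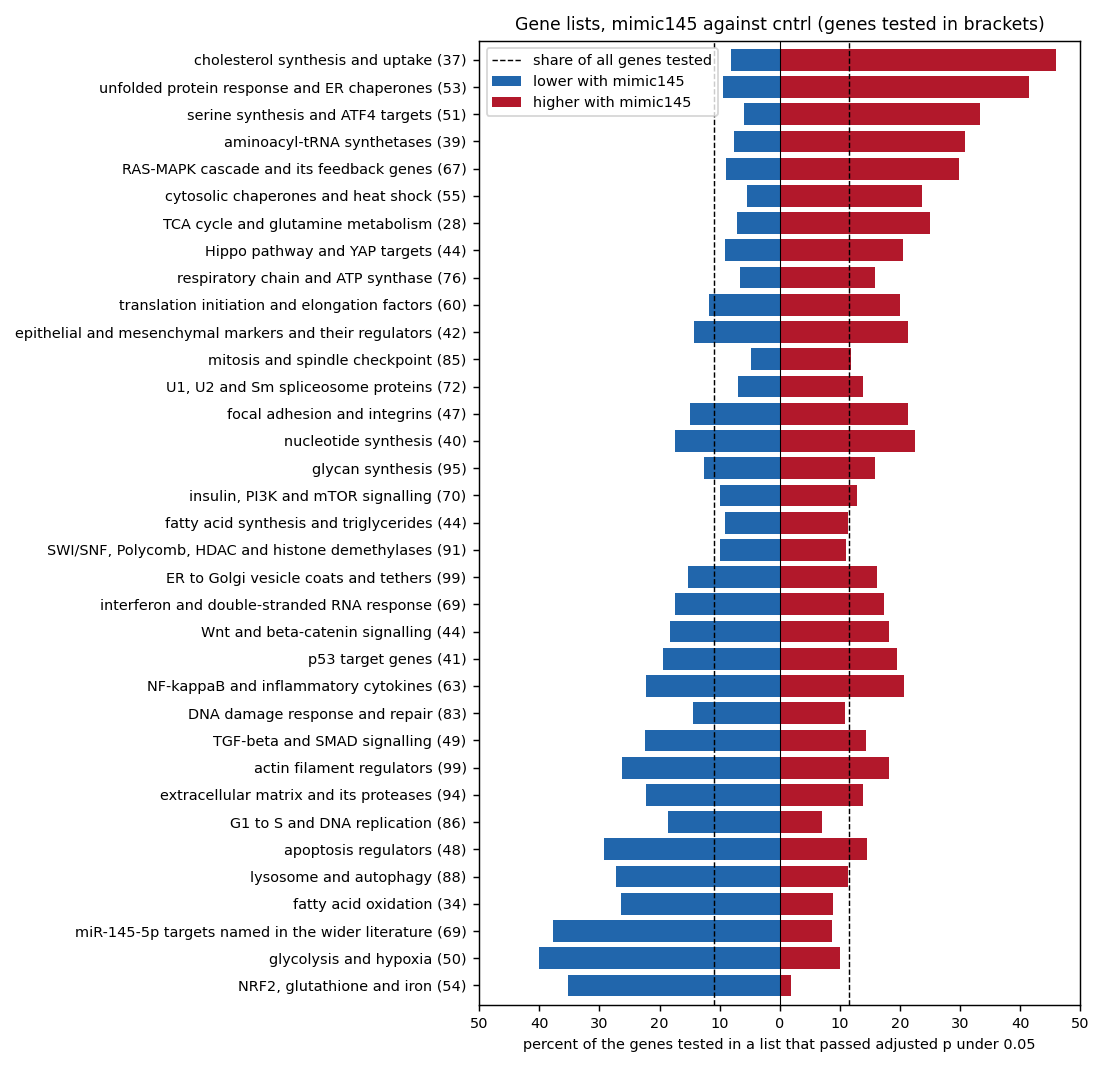
Percent of the tested genes of each of 35 of the 36 lists that passed at adjusted p under 0.05, lower (blue, to the left) or higher (red, to the right) with mimic145; dashed lines mark the shares of all genes, 11.0% and 11.6%. Cholesterol synthesis reaches 45.9% higher at the top, and the list of NRF2, glutathione and iron has 35.2% lower against 1.85% higher at the bottom.

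The unfolded protein response restores folding capacity in the endoplasmic reticulum, through chaperones, disulfide formation and removal of misfolded proteins. Of 53 tested genes in this list, 22 rose and 5 fell, with a median of 0.14. DNAJB9, a co-chaperone of BiP, stood at 9.07, 8.96 and 9.56 in cntrl and at 10.71, 10.07 and 10.94 in mimic145, a rise of 1.37 ± 0.18 (adjusted p = 0.00124). SDF2L1, another partner of BiP, moved from 10.88, 11.58 and 11.49 to 12.31, 12.36 and 12.68, and ERO1B, an oxidase that forms disulfides, rose by 1.03 (0.66 under normexp correction). The groups of these 3 genes did not overlap. HSPA5, encoding BiP itself, was at 11.92, 11.83 and 12.79 in cntrl and at 13.08, 12.52 and 13.39 in mimic145. It rose by 0.81 ± 0.10 in every pair, while the control of replicate 3 lay above the mimic145 array of replicate 2. HERPUD1, of the degradation machinery, rose by 0.89, the chaperone HYOU1 by 0.79 at all of its 26 probes, and the transcription factor XBP1 by 0.39. The falls were led by SEC11A, of the signal peptidase (-0.74), and ERO1A (-0.55), a paralog of ERO1B that is also a hypoxia gene. Without replicate 1 the list had 8 genes higher, and with any other replicate or array left out between 13 and 21, at medians of 0.09 to 0.18. With no replicate block, HSPA5 (adjusted p = 0.142) and HYOU1 (adjusted p = 0.066) did not pass. HSPA5, HERPUD1, HYOU1, XBP1 and the genes named below for their promoters were chosen after their values were seen.

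Promoters of the best known genes of this response carry the endoplasmic reticulum stress element, ERSE, spelled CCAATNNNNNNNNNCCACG, or a shorter form, ERSE-II, in which ATTGG and CCACG are joined by any 1 base. Both were searched on both strands of RefSeq promoters (GRCh38.p14), from 250 bases before to 50 after each start, which were given for 14207 of the genes tested. ERSE stood in 16 of these promoters (0.113%) and ERSE-II in 13 (0.0915%). Over all 14207 genes with a promoter given, 1710 rose and 1573 fell. Of the 16 genes with ERSE, 8 rose and 0 fell, with a median of 0.29, and 7 of the 16 belonged to the list above. Of the 9 outside the list, 4 rose: FICD, which modifies BiP, by 0.72, EIF2A by 0.50, SERP1, a protein of the translocation pore, by 0.40 and TMEM120A by 0.34. EIF2A and SERP1 start from one promoter in opposite directions, so their stretch is the same. Of the 13 genes with ERSE-II, 4 rose and 0 fell: SDF2L1, HERPUD1, HYOU1 and, on 1 probe, the antisense gene ZNF143-AS1 (0.95). Of the 10 outside the list above only ZNF143-AS1 rose, and their median was 0.08. ZNF143, which shares this match and has 14 probes, did not pass (0.17, adjusted p = 0.175). The matches of genes that rose are shown with the fixed letters in capitals, read on the strand on which they match:
HSPA5: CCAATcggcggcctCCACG
ERO1B: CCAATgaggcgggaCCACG
CRELD2: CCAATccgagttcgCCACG
XBP1: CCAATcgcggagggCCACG
FICD: CCAATgggagtggcCCACG
HYOU1: ATTGGaCCACG
HERPUD1: ATTGGgCCACG
SDF2L1: ATTGGtCCACG
On the plus strand, the FICD match lies at chr12:108515123-108515141, that of HERPUD1 at chr16:56932025-56932035 and that of ERO1B at chr1:236282183-236282201. HYOU1 holds the same letters on that strand at chr11:119057380-119057390 and at chr11:119057274-119057284. On the minus strand, that of HSPA5 lies at chr9:125241391-125241409, 66 bases before the start, and that of XBP1 at chr22:28800603-28800621, 52 bases before it. That of SDF2L1 lies on the same strand at chr22:21642114-21642124. In CRELD2, a chaperone-like secreted protein that rose by 0.70, the match at chr22:49918554-49918572, on the minus strand, is shared with ALG12 on the other strand, which did not pass (0.17, adjusted p = 0.184). The chaperone gene HSP90B1, with a pair of matches, did not pass either (0.25, adjusted p = 0.0836). Nor did CALR (-0.04, adjusted p = 0.781) and CANX (-0.01, adjusted p = 0.957), members of the list that also hold ERSE. A match is a description of the letters and not of factor binding.

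**Figure D3:**
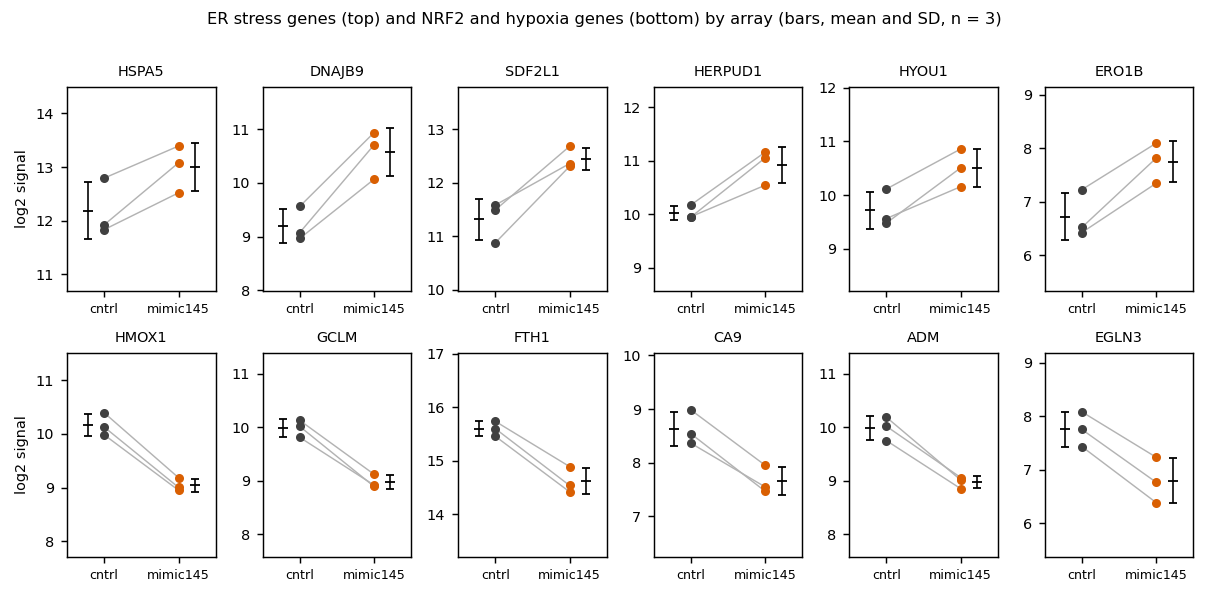
Log2 signal (y axis) on the 3 cntrl and 3 mimic145 arrays for 6 genes of the endoplasmic reticulum (top) and 6 genes of iron, glutathione and hypoxia (bottom); lines join arrays of a replicate number and bars give mean and SD. Every line of the top row climbs, with HSPA5 from 11.83 to 12.52 in replicate 2, and every line of the bottom row descends, with CA9 from 8.98 to 7.95 in the same replicate.

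ATF4 is the transcription factor of the integrated stress response, which raises amino acid supply and tRNA charging. In the list of serine synthesis and ATF4 targets 17 of 51 genes rose and 3 fell, with a median of 0.16. TRIB3, a pseudokinase, went from 9.85, 10.26 and 10.03 to 10.76, 10.81 and 11.14, a rise of 0.86 ± 0.13. DDIT3, the stress factor CHOP, went from 9.53, 10.35 and 10.17 to 10.59, 10.83 and 11.08, a rise of 0.82 ± 0.14. No array overlapped between groups for either gene. CEBPB, on a single probe, rose by 0.97. Of 39 aminoacyl-tRNA synthetases and partners 12 rose and 3 fell, led upward by VARS1 (0.59). The letters TGATGNAA, the element of CHOP and ATF4, stood in 12 of the 41 promoters of the first list (29.3%), in 4 of the 15 of its genes that rose (26.7%) and in 2.16% of all promoters. Both lists thinned when replicates were left out, as did the calls over all genes. In the first, 2 genes rose without replicate 1, 4 without replicate 3 and 10 without the mimic145 array of replicate 3. In the second, 2 and 3 rose without replicates 1 and 3.

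Cholesterol synthesis had the highest share of rises of all lists. Of 37 tested genes, 17 rose and 3 fell, and the median was 0.22. RDH11, a retinol dehydrogenase regulated with this pathway, went from 8.85, 9.38 and 9.33 to 9.98, 10.31 and 10.29, higher by 1.01 ± 0.07 (adjusted p = 0.000103). CYP51A1, the lanosterol demethylase, went from 10.20, 10.32 and 10.76 to 11.05, 10.98 and 11.39, higher by 0.71 ± 0.09. SQLE, the squalene epoxidase, went from 8.18, 8.37 and 8.34 to 8.92, 8.89 and 8.84, higher by 0.59 ± 0.07. In all 3 genes each mimic145 array lay above each control. The falls were INSIG2, which holds back the SREBP factors (-0.54), NPC2, which carries cholesterol out of lysosomes (-0.42), and NR1H3, the liver X receptor alpha (-0.25). NPC2 lost significance without replicate 3 and NR1H3 with no filter on dim probes. Each of them passed in only 8 of 21 alternatives, and in 2 of the 9 that left out a replicate or an array. With single replicates or arrays left out the median of the list stayed between 0.18 and 0.25, while 3 genes rose without replicate 1, 11 without replicate 2 or 3 and up to 16 otherwise.

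The opposite shift was seen in genes of antioxidant defence and iron. Of 54 tested genes, 19 fell and 1 rose, with a median of -0.18. HMOX1, the heme oxygenase, stood at 10.40, 10.13 and 9.99 in cntrl and at 9.18, 9.0 and 8.95 in mimic145 and fell by 1.13 ± 0.08 (adjusted p = 9.4e-05). GCLM, a subunit of the enzyme that limits glutathione synthesis, went from 10.13, 9.81 and 10.02 to 9.12, 8.92 and 8.89 and fell by 1.01 ± 0.08. FTH1, the ferritin heavy chain, went from 15.60, 15.46 and 15.74 to 14.54, 14.42 and 14.89 and fell by 0.98 ± 0.09. In all 3 genes every mimic145 array lay below every control, and the falls were 2.18-fold, 2.01-fold and 1.98-fold. The transferrin receptor TFRC (-0.59) fell as well, and the exception was the cystine transporter SLC7A11 (0.41), which is also an ATF4 target. NFE2L2, encoding the factor NRF2, and its target NQO1 did not pass, at -0.12 (adjusted p = 0.376) and -0.06 (adjusted p = 0.686). The letters TGACNNNGC, the core of the antioxidant response element, stood in 8 of the 42 promoters of the list (19.0%), in 3 of the 15 of its genes that fell (20.0%) and in 14.8% of all promoters. NFE2L2, NQO1 and TFRC were picked with their values known. The list had 8, 12 and 10 genes lower without replicates 1, 2 and 3, and its median lay between -0.20 and -0.15 when single replicates or arrays were left out.

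In the list of glycolysis and hypoxia 20 of 50 genes fell and 5 rose, with a median of -0.22. ADM, the vasodilator peptide adrenomedullin, went from 9.75, 10.02 and 10.19 to 8.85, 9.06 and 9.01 and fell by 1.01 ± 0.14. CA9, a carbonic anhydrase of hypoxic tumour cells, went from 8.54, 8.98 and 8.36 to 7.46, 7.95 and 7.55 and fell by 0.98 ± 0.15. EGLN3, a prolyl hydroxylase that marks HIF for degradation, went from 7.75, 7.43 and 8.08 to 6.77, 6.39 and 7.23 and fell by 0.96 ± 0.14. Groups did not overlap in any of them. Under normexp correction CA9 differed by -0.56 and EGLN3 by -0.55, and with the median over probes CA9 differed by -0.21 and did not pass (adjusted p = 0.381). HIF1A, the oxygen-regulated subunit itself, moved the other way, from 11.03, 10.76 and 11.54 to 11.65, 11.48 and 11.75, higher by 0.51 ± 0.10 with 1 control above 1 mimic145 array, and did not pass with no replicate block (adjusted p = 0.0867). VHL, which takes HIF to degradation, rose by 0.49 and EPAS1, encoding a second HIF alpha subunit, by 0.48. Without replicates 1 and 2 the list had 5 and 10 genes lower, without the mimic145 array of replicate 1 it had 12, and the median stayed between -0.23 and -0.17.

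**Figure D4:**
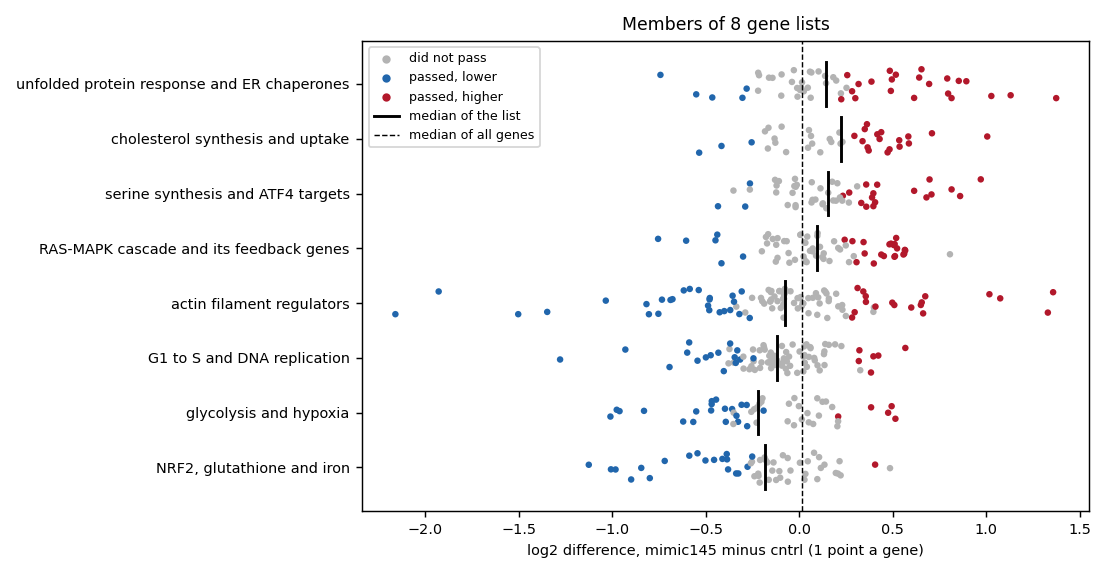
Log2 difference (x axis) of each tested gene of 8 lists, blue where it passed and fell, red where it passed and rose, grey where it did not pass; the thick bar is the list's median and the dashed line the median of all genes, 0.01. Medians run from -0.22 for glycolysis and hypoxia to 0.22 for cholesterol synthesis.

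Actin regulators changed in both directions, 26 of 99 lower and 18 higher, with a median of -0.08. Without replicate 1 there were 11 lower and 9 higher, without replicate 3 17 and 12, without replicate 2 22 and 10, and without the cntrl array of replicate 1 17 and 13. Beside the falls of FSCN1, GMFB and SWAP70 several contractile proteins rose. MYL9, the regulatory light chain of smooth muscle and nonmuscle myosin, went from 10.06, 10.46 and 10.33 to 11.38, 11.77 and 11.77, higher by 1.36 ± 0.07 at 4 of 4 probes (adjusted p = 3.25e-05). TPM2, beta-tropomyosin, went from 8.49, 8.69 and 8.52 to 9.59, 9.78 and 10.32, higher by 1.33 ± 0.15. TAGLN, the smooth muscle protein SM22, went from 6.35, 7.10 and 7.03 to 7.52, 8.07 and 8.11, higher by 1.08 ± 0.13, or 0.68 under normexp correction. The mimic145 arrays lay above all controls in each gene. A set of 23 contractile genes was put together after these values were seen: of the 22 tested, 10 rose and 3 fell, with a median of 0.16, and without replicates 1, 2 and 3 there were 4, 5 and 6 that rose. SRF, the serum response factor that drives such genes, rose by 0.52, with 0.34 under normexp correction and 0.92 with the median over probes. SMTN, CALD1 and VCL, encoding smoothelin, caldesmon and vinculin, rose by 0.57, 0.51 and 0.48. For SRF 2 of 6 probes ran the other way, for SMTN 2 of 22 and for CALD1 1 of 17. TPM1, alpha-tropomyosin, fell by 0.54 at all of its 14 probes and MRTFB, a coactivator of SRF, by 0.41, while TPM4 fell by 0.26. With the median over probes MRTFB differed by -0.25 and did not pass. The smooth muscle genes ACTA2 (-0.25), ACTG2 (-0.41), CNN1 (0.01), MYH11 (-0.12) and MYLK (0.02) did not pass either. The CArG box, the site of SRF, was found in 6 of 17 promoters of this set (35.3%) and in 1.14% of all 14207. Of the 8 promoters of members that rose, 2 held it.

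Matrix genes and proteases had 21 of 94 lower and 13 higher, with 6 and 3 without replicate 1, 9 and 4 without replicate 2 and 12 and 8 without replicate 3. THBS1, the matricellular thrombospondin, fell by 1.08, and SDC4, a heparan sulfate proteoglycan, by 0.94, whereas SDC2, of the same family, rose by 1.00 and TNC, tenascin C, by 0.81 (0.53 under normexp correction).

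Most genes of MHC class II, which present peptides from outside the cell to helper T cells, fell. This set was added because HLA-DRA stood among the largest falls, so its direction was known when it was chosen. Of 15 tested genes of the HLA-D region, 11 fell and 0 rose. HLA-DRA went from 11.50, 10.94 and 11.21 to 9.88, 9.57 and 9.08 and fell by 1.71 ± 0.14 at 5 of 5 probes (adjusted p = 0.000156). HLA-DPA1 went from 10.85, 10.71 and 10.69 to 9.85, 10.04 and 9.84 and fell by 0.84 ± 0.15, and its partner chain HLA-DPB1 by 0.95. HLA-DQB1 went from 8.47, 8.32 and 8.09 to 7.09, 6.99 and 7.08 and fell by 1.24 ± 0.14, with -0.80 under normexp correction. In HLA-DRA, HLA-DPA1 and HLA-DQB1 the groups did not overlap. CD74, the invariant chain that escorts class II molecules, went from 11.73, 11.60 and 11.62 to 10.94, 10.72 and 10.78 and fell by 0.83 ± 0.11 at 9 of 9 probes. The peptide loading genes HLA-DMA and HLA-DMB fell by 0.63 and 0.88, their modulator HLA-DOA by 1.00 (-0.45 with only probes above background on all arrays), and IFI30, a lysosomal thiol reductase of antigen processing, by 0.99. HLA-DRB1 and HLA-DRB5 fell by 0.96 and 1.10, with -0.51 for HLA-DRB1 as the median over probes, but the HLA-DRB genes are near-identical and their probes may share signal.

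CIITA, the master coactivator of these genes, was at 7.86, 7.85 and 7.60 in cntrl and at 7.60, 7.65 and 7.52 in mimic145, which did not pass (-0.18, adjusted p = 0.123). Its lowest control lay within the range of the mimic145 arrays. RFXANK, a subunit of the factor that binds class II promoters, rose by 0.27. Over 11 class I and class I loading genes the median was -0.08. Class II genes are also leukocyte genes: of 11 tested leukocyte markers 0 fell and 2 rose, CD14 by 0.37 on 1 probe and LAPTM5 by 0.27. The part of such cells in the result was not tested. The 13 class II genes that fell stayed 13 without replicate 2 or 3 and were 11 without replicate 1, and the genes of this paragraph were chosen with their values known. The short Y box ATTGG of class II promoters stood on either strand in 9 of the 10 promoters given for members that fell and in 35.9% of all promoters. It was also frequent among genes that rose, in 7 of 8 promoters of contractile genes (87.5%), 15 of 19 of the unfolded protein response (78.9%) and 11 of 14 of cholesterol synthesis (78.6%).

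**Figure D5:**
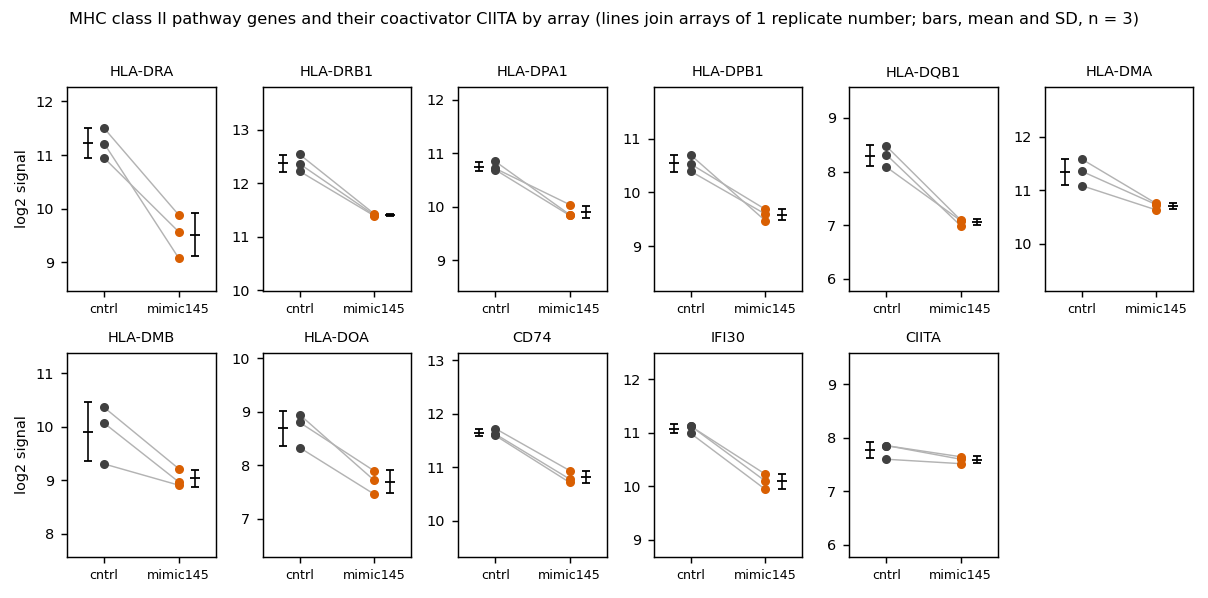
Log2 signal (y axis, each panel spanning the same range) on the 3 cntrl and 3 mimic145 arrays for 10 class II pathway genes and their coactivator CIITA; lines join arrays of a replicate number and bars give mean and SD. HLA-DRA dropped by 1.71 and CD74 by 0.83, while CIITA differed by -0.18.

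Innate immune genes changed in both directions. In the interferon list 12 of 69 genes rose and 12 fell, with fewer calls when a replicate was left out. The antiviral effector RSAD2 rose by 1.12 on 3 probes (0.65 under normexp correction and 1.69 with only probes above background on all arrays), and ISG15, a ubiquitin-like modifier on 2 probes, by 1.22, while IFNGR2, a chain of the interferon gamma receptor, fell by 0.65. Among NF-kappaB and cytokine genes 14 of 63 fell and 13 rose, but 9 fell and 2 rose without replicate 1, 8 and 3 without replicate 3, 10 and 11 without replicate 2 and 12 and 8 without the cntrl array of replicate 1. C3, the central complement protein, stood at 9.30, 9.43 and 10.25 in cntrl and at 7.76, 8.05 and 8.58 in mimic145 and fell by 1.53 ± 0.11 at 43 of 43 probes. LCN2, which binds bacterial siderophores, went from 11.89, 12.05 and 13.12 to 10.63, 10.67 and 11.22 and fell by 1.51 ± 0.11. In both genes replicate 3 was the highest of its group, and the groups did not overlap. The acute phase proteins SAA1 and SAA2, whose sequences are alike enough for probes to share signal, fell by 1.27 and 1.30, with -0.85 for SAA2 as the median over probes, and the cytokine IL24 rose by 0.96.

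The replicates differed in genes of the cell cycle. Of 86 genes of G1 to S and replication 16 fell and 6 rose (median -0.12), and of 85 mitotic genes 4 fell and 10 rose (median 0.06), 11.8% against 11.6% of all genes. The medians in pairs 1, 2 and 3 were 0.07, -0.07 and -0.34 in the first list and 0.27, 0.15 and -0.18 in the second. Mitotic genes that rose numbered 0 without replicate 1 or 2, 9 without replicate 3 and 17 without the mimic145 array of replicate 3. UNG, which removes uracil from DNA, went from 9.43, 9.67 and 9.51 to 8.33, 8.43 and 8.01 and fell by 1.28 ± 0.09. POLE2, a subunit of polymerase epsilon, fell by 0.93 at 17 of 17 probes, and MCM6, of the replicative helicase, by 0.69 (-0.43 without replicate 3). The count of falls in the first list was 7, 2 and 4 without replicates 1, 2 and 3 and reached 14 with single arrays left out, and its median was -0.02 without replicate 3. In the RAS-MAPK list 20 of 67 genes rose and 6 fell, with 7 and 8 higher without replicates 1 and 3. DUSP5, a phosphatase of ERK kinases, rose by 0.57, while NRAS and DUSP10 fell by 0.60 and 0.76.

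Families were also formed without a list, from the letters of a symbol before its first digit. A root thus also takes in antisense and other genes that only share its letters, such as ANXA2R, GALNT9-AS1, KLF3-AS1 and MRPL23-AS1. There were 137 families of at least 15 tested genes, with 5350 genes. Their counts without a replicate are likewise to be read beside the smaller counts over all genes, given with the lists. The highest share of rises was in TIMM, the translocases of the inner mitochondrial membrane, with 8 of 15 genes higher and 0 lower, although without replicates 1, 2 and 3 only 0, 1 and 3 were higher. TIMM10 and TIMM17A rose by 0.47 and 0.42. MRPL, the large subunit of mitochondrial ribosomes, had 16 of 51 higher and 5 lower, from MRPL19 at 0.76 (1.22 with the median over probes) to MRPL51, named with its value known, at -1.19, and 3, 9 and 6 higher without replicates 1, 2 and 3. SNHG, the noncoding hosts of small nucleolar RNAs, had 7 of 15 higher and 0 lower, with SNHG15 at 0.67 and SNHG8 at 0.63, and 2, 3 and 5 higher without replicates 1, 2 and 3. Genes with the root SEC had 9 of 31 higher and 1 lower, led by SEC11C of the signal peptidase (0.65), with 1, 7 and 0 higher without replicates 1, 2 and 3. Most belong to the coats and translocons of secretion, but the root also takes in SEC14L2, a lipid transfer protein, and the pseudogene SEC1P, both among those that rose. KLF transcription factors had 6 of 18 higher and 4 lower, and of the 16 genes with the root TP 5 rose and 2 fell. At most 2 members of either family rose without any 1 of the replicates.

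The highest share of falls was in AKR, the aldo-keto reductases that reduce aldehydes and ketones, with 9 of 16 genes lower and 0 higher, and with 2, 4 and 7 lower without replicates 1, 2 and 3. AKR1B1, the aldose reductase, fell by 1.16 on 10 probes, while AKR1B10, AKR1C3 and the AKR7 genes are so alike in sequence that single members are uncertain. DENND genes, which activate RAB proteins, had 6 of 17 lower and 1 higher, with DENND10 at -1.25 and DENND5B at -0.70 (-0.37 under normexp correction). Peroxins of the PEX family, needed to build peroxisomes, had 6 of 18 lower and 2 higher, with PEX3 at -0.53, which did not pass with the median over probes (-0.31). ANXA annexins had 5 of 16 lower and 2 higher, led by the near-identical ANXA8L1 (-0.98) and ANXA8 (-0.78). GALNT enzymes of mucin-type glycosylation had 5 of 18 lower and 2 higher, led by GALNT1 (-0.97) and GALNT12 (-0.65). MYH myosins had 4 of 15 lower and 0 higher, led by MYH10 (-0.69), a nonmuscle myosin. Without replicates 1, 2 and 3 the falls numbered 3, 5 and 3 in DENND, 1, 3 and 2 in PEX, 3, 6 and 4 in ANXA, 1, 4 and 2 in GALNT and 1, 3 and 2 in MYH. The median over all members was -0.36 for AKR and -0.13 for DENND, and kept its sign under every alternative tried. It was -0.13 for GALNT and -0.08 for MYH, but 0.01 for ANXA and 0.07 for PEX, which did not lie below the 0.01 of all genes. For KLF it was 0.05. The medians of ANXA, GALNT, KLF, MYH and PEX changed sign under some alternatives.

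With the siRNA against AGO2, the same contrast had a median of -0.23 over the genes that fell with AGO2 intact and of 0.16 over those that rose. These genes were chosen on the cells with AGO2 intact, so a smaller value elsewhere follows in part from the choice. HLA-DRA differed by -0.78 and CD74 by -0.22 between sirnaAGO2+mimic145 and sirnaAGO2. HSPA5 and DNAJB9 differed by 0.50 and 0.78, HMOX1 and GCLM by -0.95 and -0.86, and MYL9 and TPM2 by 0.60 and 0.12. The medians there were 0.07 for the unfolded protein response, 0.13 for cholesterol synthesis, -0.08 for NRF2, glutathione and iron, and -0.10 for glycolysis and hypoxia. The difference between both contrasts passed for 2 of 18253 genes (0.0110%), with 3060 at an unadjusted p under 0.05. Of these, SAA2-SAA4, a readthrough gene on 2 probes, fell by 1.08 more with AGO2 intact (adjusted p = 0.0351). For no gene of the 36 lists did this difference pass, which at 3 arrays a group does not show that the responses were alike. With 1 array left out, some of the genes named here lost significance in the comparison with AGO2 intact in at least 1 case. Among them were FICD, MCM6, NPC2, NR1H3, SEC1P, SLC7A11, SNHG15, TIMM17A and XBP1. Of the 9 settings without a replicate or an array, DDIT3 and SRF passed in 7, and RFXANK and MRTFB in 6.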

How the data were processed

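RNA of 12 cultures was labelled with a single dye and hybridised to Agilent exon arrays. The authors deposited, for each array, the processed signal intensity of Feature Extraction 10.7.3.1, corrected for background but not normalized between arrays, and a table of log2 values quantile normalized over the arrays, used here as an alternative. Intensities of 411345 non-control spots, without outlier spots, were floored at 1, quantile normalized over 12 arrays, log2 transformed and averaged by probe. A probe was kept where all 3 arrays of some group, of the 4, showed it well above background, so a gene could enter through the group where it is high. Transcript accessions named 209671 of 233164 probes (89.9%) through RefSeq, and 142957 kept probes gave 18253 genes, 2832 of them on 1 probe. A linear model of group and replicate number was fitted to all 12 arrays with limma 3.58.1 in R 4.3.3, and two-sided p-values were adjusted by Benjamini-Hochberg over 18253 genes.

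The replicate number served as a block because the study's methods name a paired test and each slide held arrays of the same number. Deviations from group means correlated at 0.139 to 0.577 for the 18 pairs of arrays of different groups with the same number, and at -0.495 to 0.201 for the others. The number of arrays limits the precision. In simulated data with 200 changed genes of 18253, limma found 93.5% of changes of 1 and 45% of changes of 0.5, and called 1 gene where none was changed. The noise was drawn independently for each gene and array around the fitted replicate effects, with no effect of array position. Few false calls were thus built in, and the real arrays may differ.

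Named genes are the 15 largest falls and rises among genes that passed with at least 3 probes and the same direction in 3 pairs and that the main text of the paper does not name (its supplements were not considered), for each list the 3 largest falls and rises, on any number of probes, and for each described family the leading members. Others are said to be chosen after their values were seen. The lists and all members were chosen with earlier results of these data known, and the lists carry no test. Alternatives were other scaling, background correction, filters, probe summary, blocks, arrays, tests and thresholds, and leaving out replicates or arrays. Genes with seed matches were not analysed here. Alternatives for sets, families and the difference of contrasts were chosen after seeing the data. Other experiments of the study were not analysed here, and some genes and 1 list that met these rules are not reported here.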

Additional observations from a re-analysis of the deposited data

Results flagged for a closer look

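The effect of the mimic on SAA2-SAA4 with AGO2 intact differed from its effect with the AGO2 siRNA, by the test of that difference in limma. SAA2-SAA4 fell by 1.72 in one arm and by 0.64 in the other, a difference of -1.08 (adjusted p = 0.0351). It is a readthrough gene on 2 probes, and probes of SAA1 and SAA2 may share its signal. With no replicate block its difference did not pass.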

How the results depend on the processing

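The number of genes that passed was 1995 with no replicate block, 1815 with only the 6 arrays of both groups, 1974 at an adjusted p under 0.01, 1558 where a log2 difference over 0.5 was also required and 0 by the methods' t-test after adjustment. With replicates or arrays left out it ran from 1211 to 3281, and under scaling to the 75th percentile, normexp correction, the authors' table, other filters, the median over probes or the slide as a block it lay between 3377 and 4954. For the difference of the mimic effects with and without AGO2 silencing, 150 genes passed with normexp correction, 33 in the authors' table, 5 with no filter on dim probes, 291 with only probes above background on all arrays, 30 with the slide as a block, 0 with no replicate block and 0 to 3 with replicates or arrays left out, against 2; the cause was not tested. Of 275 named or listed genes that passed, 217 did so with no replicate block and 175 without replicate 1. AKR1B15 (0.0621) and ROR2 (0.19) turned positive with no filter on dim probes, as did MYH16 (0.29) with only probes above background on all arrays; each was tested on other probes there. List medians of mitosis (-0.04 to 0.21), extracellular matrix (-0.11 to 0.02) and interferon genes (-0.06 to 0.02) had both signs over the alternatives. So did those of several other lists, among them DNA damage (-0.12 to 0.05), NF-kappaB (-0.01 to 0.07), p53 targets (-0.08 to 0.04) and apoptosis (-0.07 to 5e-04). Signal over background limits dim genes: 25 genes that passed were not above background in mimic145 and 3 in cntrl, and small differences at 3 arrays a group were often missed in simulated data.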

Other observations

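Genes of lysosomes and autophagy leaned lower, with 24 of 88 lower and 10 higher, and 9 and 1 without replicate 1, 16 and 5 without replicate 2 and 12 and 3 without replicate 3. CTSO, a cysteine protease of lysosomes, fell by 1.20 (-0.60 under normexp correction), GABARAPL2, which coats autophagosomes, by 1.08, and LAMP2, a lysosomal membrane glycoprotein, by 0.71, while WIPI1, an early autophagy factor, rose by 0.89. Among apoptosis regulators 14 of 48 fell and 7 rose, with 6 and 2, 9 and 4, and 6 and 3 without replicates 1, 2 and 3. APAF1, the core of the apoptosome, fell by 1.23 at 24 probes (-0.82 under normexp correction) and BIK, a killer protein of the BCL2 family, by 0.84, whereas BAK1, which opens mitochondria, rose by 0.61. In fatty acid oxidation 9 of 34 fell and 3 rose, led by ETFDH, which passes electrons from this pathway to the respiratory chain (-0.94, or -0.51 under normexp correction), and HSD17B4, of peroxisomal oxidation (-0.90).

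Zinc finger genes with the root ZNF made the largest of the families formed by symbol, and 84 of 492 fell and 26 rose, with a median of -0.09. The small Cajal body RNAs, which guide modification of spliceosomal RNAs, were picked after their values were seen. SCARNA16, SCARNA9 and SCARNA13 fell by 1.37, 1.07 and 1.05, each on a single probe, and SCARNA5 and SCARNA6, at -0.02 and -0.11, did not pass.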
